A study of Homo sapiens with 27 samples.

Results

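The 2 mature arms of the miR-21 hairpin, hsa-miR-21-5p and hsa-miR-21-3p, were followed through small RNA sequencing of H1 human embryonic stem cells (hESCs) and K562 cells. They were chosen by name and are 2 of 2276 mature miRNAs listed in any deposited table. H1 is an established pluripotent line and K562 an established line of chronic myelogenous leukaemia. The study asked how loss of USB1, an exonuclease that removes adenosines and uridines from the ends of small RNAs, changes miRNAs, with 3 libraries in each of 9 groups. The hESC groups were USB1 mutant cells with hairpins against PAPD5 (mutant shPAPD5), USB1 mutant cells with a doxycycline-inducible wild-type USB1 given doxycycline (mutant iUSB1 +Dox) or not (mutant iUSB1 -Dox), USB1 mutant cells, and wild-type (WT) cells. Mutant shPAPD5 and both iUSB1 groups thus carried the USB1 mutation too. The K562 groups were USB1-KO cells with a hairpin against PARN (USB1-KO shPARN), control cells with that hairpin (control shPARN), USB1-KO cells and control cells. The mutation was made with CRISPR/Cas9 and grown from picked colonies, and the knockout was grown from single-cell clones. How many clones the libraries hold is not given, and no group labelled as carrying a non-targeting hairpin was analysed here.

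A miRNA hairpin is cut to a duplex, and usually 1 strand, the guide, is loaded into an Argonaute protein while the other, the passenger, is degraded. miR-21-5p is the guide of miR-21, is abundant in many human cell types and cancers, and is known for repressing growth-restraining mRNAs such as PDCD4. It is also a known substrate of tailing. PAPD5, a non-canonical poly(A) polymerase, adds adenosines to its 3′ end, and PARN, a poly(A)-specific ribonuclease, trims them. According to the paper, such tails can promote the decay of miRNAs, and PARN stabilizes miRNAs by taking tails off. Each table holds 1 count per mature arm, so tailed and untailed molecules were not told apart here.

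The guide arm and the other human miRNA that shares its seed are shown because the seed, bases 2 to 8 in capitals, sets which mRNAs a miRNA pairs with. Both sequences are those of RefSeq (GRCh38.p14), 5′ to 3′.
hsa-miR-21-5p: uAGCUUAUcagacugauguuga
hsa-miR-590-5p: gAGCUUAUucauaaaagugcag
Of 2370 mature miRNAs in the RefSeq table, these 2 had this seed, and 8 of their 22 positions were identical. miR-590-5p was nearly absent, with 0 to 12 counts in an hESC library and 4 to 20 in a K562 library, so nearly all counts with this seed belonged to miR-21-5p. The MIR21 hairpin lies on the plus strand of chromosome 17 (GRCh38, 59841266 to 59841337, 72 bases), with miR-21-5p at 59841273 to 59841294. It lies within exons of 10 transcripts of VMP1, a gene of the same strand, with 8 overlapping UTR features and 0 overlapping coding features in GENCODE 44. MIR590 lies on chromosome 7 (74191198 to 74191294, plus strand) inside EIF4H, where 0 exons overlap it, in an intron. The reads were aligned to miRBase entries and not to a genome, so these positions come from the annotations alone.

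Depth ran between 12258450 and 35734485 miRNA counts per hESC library, and between 1530929 and 13183152 per K562 library. USB1-KO library 3 was the shallowest, and the next K562 library held 6287087. Levels of single miRNAs are CPM, that is counts relative to the total of a library as adjusted by TMM scaling. Sums over a list of miRNAs are CPM of the unadjusted library total, without TMM scaling. The miRNAs of pluripotent cells summed to 415392 to 608352 CPM in hESCs, with 9 of 9 detected, and to 0.653 to 1562 CPM in K562. The 8 blood lineage miRNAs summed to 232 to 558 CPM in hESCs and 6505 to 11271 CPM in K562. K562 control libraries 1 and 2 held 14678 and 9823 counts of the 9 miRNAs of pluripotent cells, where the other K562 libraries held 1 to 249. Of a subset of the miR-302 cluster, markers of such cells, these 2 libraries held 7595 and 5111 counts, where the others held 0 to 7. An amount of WT hESC RNA with that many miR-302 counts would carry 0.0645 and 0.0841% of the miR-21-5p counts of these libraries. Changes of either arm and of the arm ratio that are set against control cells are also given without both. The study's figure legends give 3 biological replicates for WT and USB1 mutant hESCs and for control and USB1-KO K562 cells. Neither these nor the labels say whether replicates are separate cultures. The p-values then cover only how these libraries vary, which may be technical in part.

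miR-21-5p was a major miRNA of both lines. It took 1.92 to 2.84% of the counts of an hESC library, where it ranked 6 to 9 by count, and 12.6 to 32.1% of a K562 library, where it ranked 1 or 2. Counting error was small beside this spread, since the widest exact (Clopper-Pearson) 95% interval of a share was ± 0.00930 percentage points in hESCs and ± 0.0538 in K562. Such intervals cover counting error only. miR-21-3p was a minor species in both, with 297 to 821 counts and rank 229 to 292 in hESCs, and 1024 to 6786 counts and rank 76 to 120 in K562.

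**Figure D1:**
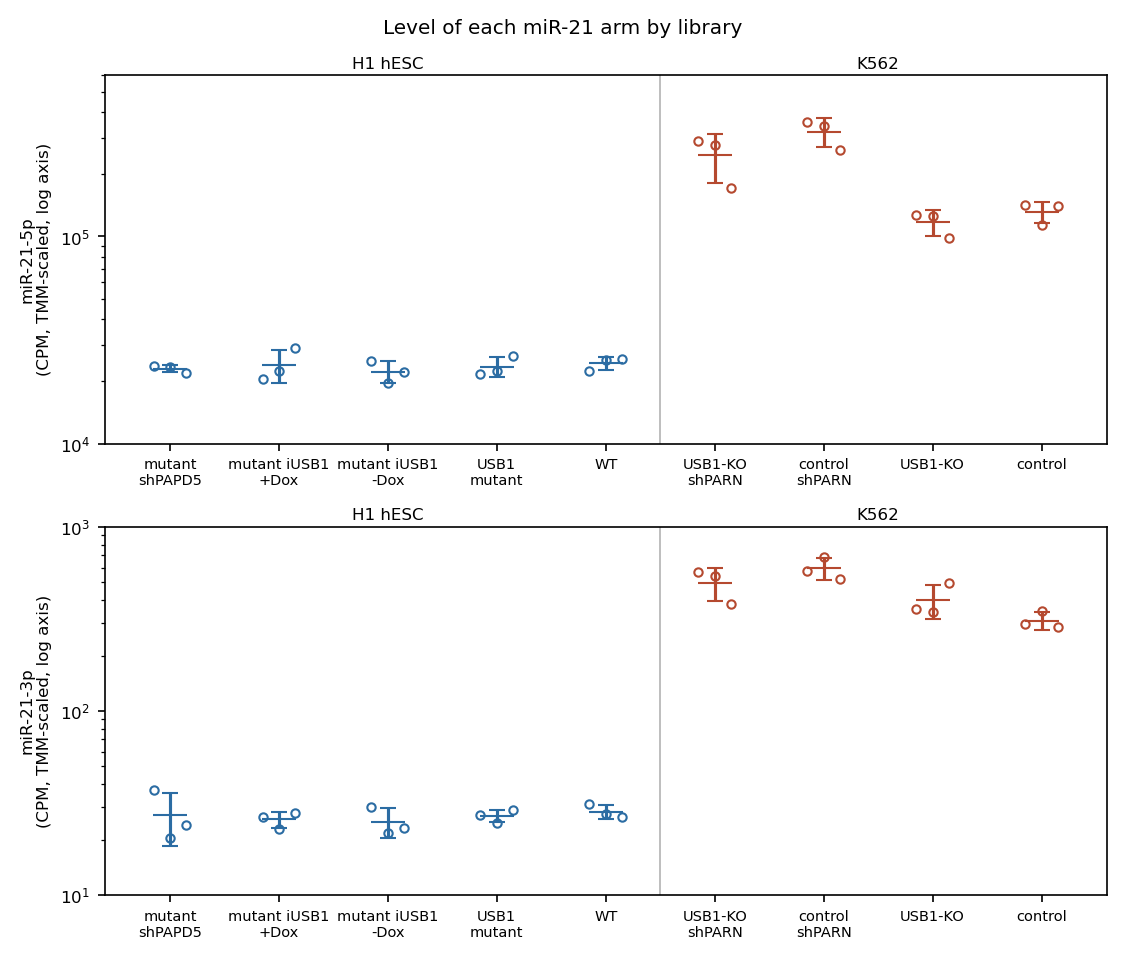
Level of miR-21-5p (upper panel) and miR-21-3p (lower panel) in each library, in CPM after TMM scaling on log axes, with the groups of H1 hESCs on the left and of K562 on the right. Circles are libraries, horizontal lines are means of 3 libraries and bars are SD; the hESC means of miR-21-5p lie between 22219 and 24469 CPM, and the K562 means of 246488 and 321130 CPM in the shPARN groups lie above those of 117261 and 131487 CPM in the groups without a hairpin.

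In hESCs neither arm passed the test in any of the 7 comparisons. miR-21-5p stood at 23575, 23340 and 22027 CPM in mutant shPAPD5 libraries and at 20525, 22380 and 28985 CPM in mutant iUSB1 +Dox libraries. It stood at 24925, 19510 and 22221 CPM in mutant iUSB1 -Dox, 21702, 22489 and 26406 CPM in USB1 mutant, and 22510, 25265 and 25631 CPM in WT libraries. All 5 groups overlapped, and the highest and lowest of the 15 libraries, both of the inducible line, differed 1.49-fold. The group means, from high to low, were 24469 ± 1706 CPM in WT, 23963 ± 4447 in mutant iUSB1 +Dox, 23532 ± 2519 in USB1 mutant, 22981 ± 834 in mutant shPAPD5 and 22219 ± 2708 in mutant iUSB1 -Dox (SD, n = 3 each). Each step in this order was smaller than the SD of at least 1 of the neighbouring groups.

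miR-21-3p, the passenger arm, stood at 37.1, 20.3 and 24.1 CPM in mutant shPAPD5 libraries, which held both the highest and the lowest value of the line. It stood at 26.5, 22.9 and 27.7 CPM in mutant iUSB1 +Dox, 30.2, 21.6 and 23.2 CPM in mutant iUSB1 -Dox, 27.3, 24.7 and 28.9 CPM in USB1 mutant, and 31.1, 27.4 and 26.5 CPM in WT libraries. Again all groups overlapped, and the 15 libraries spanned 1.83-fold.

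The test was edgeR's quasi-likelihood test on all 998 tested hESC miRNAs, and a miRNA passed it at a Benjamini-Hochberg adjusted p under 0.05. In USB1 mutant against WT cells, 7.41% of tested miRNAs passed. The log2 change of miR-21-5p was -0.06 (SE 0.15, edgeR adjusted p = 0.862, 95% interval -0.38 to 0.27) and that of miR-21-3p was -0.07 (SE 0.21, edgeR adjusted p = 0.872, interval -0.53 to 0.38). The lower bound for the guide arm corresponds to 0.770-fold, so a deeper fall lay outside its interval. Among the miRNAs that the study followed as targets of adenylation, 2 of the 4 tested fell in this comparison. These were miR-125b-5p and miR-199a-3p, by 1.08 log2 units each, and the list median was -1.08 against 0.04 over all tested miRNAs. The study picked this list for lower levels in USB1 mutant cells. Its fall here is thus partly set by that choice and is no independent contrast to miR-21.

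With inducible USB1, 4.31% of miRNAs passed in mutant iUSB1 -Dox against WT and 8.22% in mutant iUSB1 +Dox against WT. miR-21-5p had log2 changes of -0.14 and -0.03 in these comparisons, and miR-21-3p of -0.18 and -0.14. No miRNA passed (0%) in mutant iUSB1 +Dox against -Dox, where 45 miRNAs had an unadjusted edgeR p under 0.05 and DESeq2 called 1. The log2 difference with doxycycline was 0.11 in miR-21-5p (SE 0.15, edgeR adjusted p = 0.994, interval -0.21 to 0.43) and 0.04 in miR-21-3p (interval -0.42 to 0.49). Likewise 0% passed in mutant iUSB1 -Dox against USB1 mutant (89 at an unadjusted edgeR p under 0.05, 2 by DESeq2), with log2 changes of -0.08 and -0.11 for the guide and passenger arms.

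Knockdown of PAPD5, the polymerase that tails miR-21-5p, was compared with USB1 mutant and with WT cells. In both comparisons 0% of miRNAs passed, with 116 and 130 at an unadjusted edgeR p under 0.05 and 8 and 26 called by DESeq2. miR-21-5p had log2 changes of -0.03 in mutant shPAPD5 against USB1 mutant (SE 0.15, edgeR adjusted p = 0.957, interval -0.36 to 0.29) and -0.09 against WT (interval -0.41 to 0.23). miR-21-3p had 0.01 (interval -0.44 to 0.46) and -0.06 (interval -0.52 to 0.39). Over all 7 comparisons and both arms, the adjusted p of edgeR ran from 0.715 to 0.994. Feeder fibroblasts were used for some hESC cultures according to the methods, and the 11 fibroblast miRNAs summed to 323 to 803 CPM in these libraries; their part in the level of miR-21 was not tested.

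**Figure D2:**
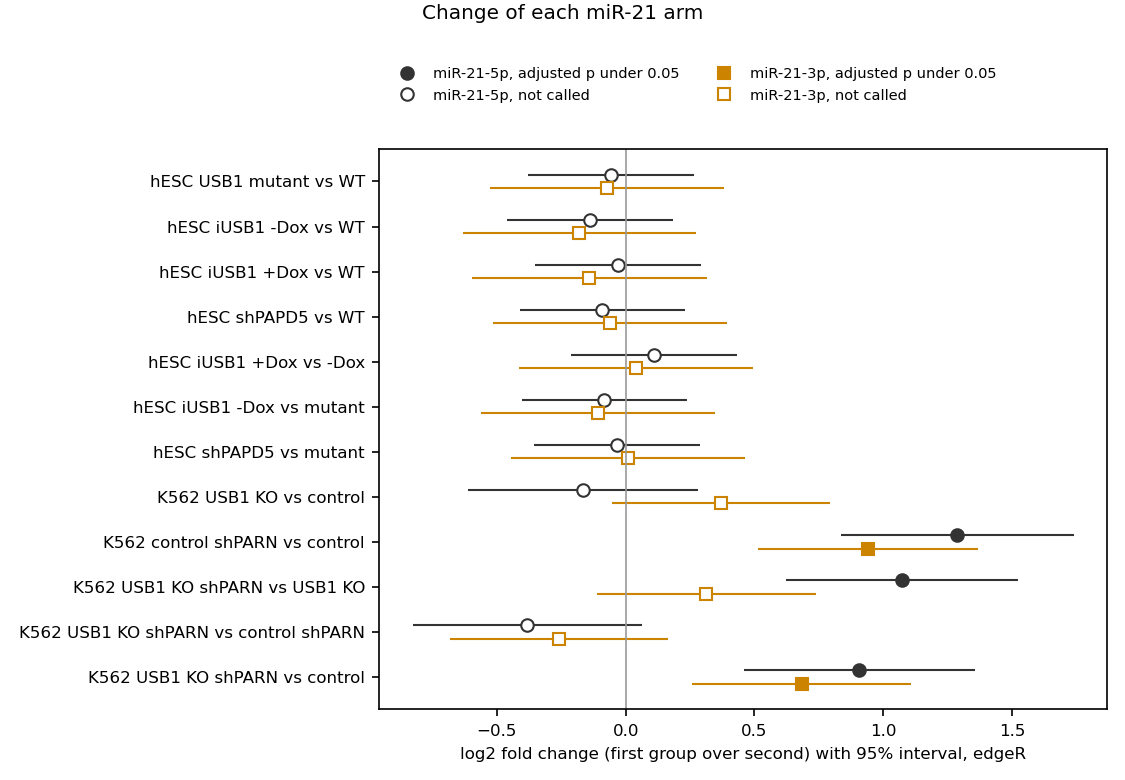
Log2 fold change of miR-21-5p (circles) and miR-21-3p (squares) in each comparison, first group over second, with 95% intervals from edgeR; filled symbols have an adjusted p under 0.05. The 7 hESC comparisons lie between -0.18 and 0.11 with intervals across 0, while miR-21-5p reaches 1.29 and 1.07 in the K562 comparisons of shPARN cells with their counterparts without a hairpin.

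In K562 cells miR-21-5p rose with the PARN hairpin in both backgrounds. It stood at 289667, 277821 and 171975 CPM in USB1-KO shPARN libraries and at 358251, 342371 and 262769 CPM in control shPARN libraries. It stood at 127328, 125935 and 98522 CPM in USB1-KO libraries and at 141617, 113105 and 139740 CPM in control libraries. In each background all 3 shPARN libraries lay above all 3 without a hairpin. This held for 17.4% of tested miRNAs in USB1-KO and 11.1% in control cells. Library 3 was the lowest of each shPARN group, and the 12 libraries spanned 3.64-fold. The means were 246488 ± 64801 CPM in USB1-KO shPARN, 321130 ± 51163 in control shPARN, 117261 ± 16244 in USB1-KO and 131487 ± 15947 in control cells (SD, n = 3 each).

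As shares of all miRNA counts, these levels were 25.8, 25.3 and 17.4% in USB1-KO shPARN and 32.1, 29.5 and 24.1% in control shPARN libraries, against 12.9, 13.0 and 13.3% in USB1-KO and 15.5, 12.6 and 13.9% in control libraries. The mean share was 9.77 percentage points higher in USB1-KO shPARN than in USB1-KO cells and 14.6 points higher in control shPARN than in control cells. miR-21-5p was the first miRNA by count in control shPARN libraries 1 and 2 and the second in the other 10 K562 libraries. Shares are relative: a larger share, fewer counts of other miRNAs and more miR-21-5p per cell cannot be told apart in these libraries.

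In control shPARN against control cells, the log2 change of miR-21-5p was 1.29 (SE 0.21, edgeR adjusted p = 0.0132, 95% interval 0.84 to 1.74), or 2.44-fold. In this comparison 1.48% of the 881 tested miRNAs passed, 1.25% as higher, and 11.1% had all 3 libraries above the other 3. miR-21-5p was second by p, and 21 miRNAs had a larger change, 3 of which passed. The call was lost without control library 2 (log2 1.20, edgeR adjusted p = 0.0645) and without control libraries 1 and 2 together (1.20, adjusted p = 0.535). In that last fit, here and below, the remaining control library is assumed to vary like the other groups, and of 982 tested miRNAs 0 passed here, with 56 at an unadjusted edgeR p under 0.05.

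In USB1-KO shPARN against USB1-KO cells, miR-21-5p rose by 1.07 log2 units (SE 0.21, edgeR adjusted p = 0.00595, interval 0.62 to 1.52), or 2.10-fold. Here 14.8% of miRNAs passed, 9.08% as higher, and 17.4% had all 3 libraries above. miR-21-5p was 25th by p, and 92 miRNAs had a larger change, 41 of them passing. This call held under all 14 alternatives, with log2 changes of 0.81 to 1.25 and adjusted p of 0.000541 to 0.0327.

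miR-21-3p rose in control shPARN against control cells and was not called between the USB1-KO groups. It stood at 569, 541 and 380 CPM in USB1-KO shPARN, 575, 684 and 523 CPM in control shPARN, 359, 344 and 497 CPM in USB1-KO, and 296, 347 and 284 CPM in control libraries. The control shPARN libraries lay above all control libraries, while USB1-KO library 3 lay above 1 USB1-KO shPARN library. The means were 497 ± 102 CPM in USB1-KO shPARN, 594 ± 82.2 in control shPARN, 400 ± 84.4 in USB1-KO and 309 ± 33.7 in control cells (SD, n = 3 each).

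The log2 change of miR-21-3p was 0.94 in control shPARN against control cells (SE 0.20, edgeR adjusted p = 0.0298, interval 0.52 to 1.37), or 1.92-fold. The adjusted p exceeded the threshold without control shPARN library 1 (log2 0.95, edgeR adjusted p = 0.119) or 2 (0.85, 0.129), without control library 1 (0.92, 0.109), 2 (1.04, 0.0645) or 3 (0.90, 0.0801), without control libraries 1 and 2 together (1.07, 0.535), and with scaling by library totals (0.67, 0.141). In USB1-KO shPARN against USB1-KO cells the log2 change was 0.31 (SE 0.20, edgeR adjusted p = 0.337, interval -0.11 to 0.74), and it was -0.0021 with scaling by library totals.

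USB1 knockout without the hairpin moved neither arm past the test. In USB1-KO against control cells, where 5.11% of miRNAs passed, miR-21-5p had a log2 change of -0.17 (SE 0.21, edgeR adjusted p = 0.722, interval -0.61 to 0.28). miR-21-3p had 0.37 (SE 0.20, edgeR adjusted p = 0.341, interval -0.05 to 0.79). Without control libraries 1 and 2 together these were -0.27 (edgeR adjusted p = 0.840) and 0.47 (0.716), and without USB1-KO library 3 they were -0.05 and 0.19. In USB1-KO shPARN against control shPARN cells, where 9.19% passed, the log2 changes were -0.38 for miR-21-5p (SE 0.21, edgeR adjusted p = 0.257, interval -0.83 to 0.06) and -0.26 for miR-21-3p (SE 0.20, adjusted p = 0.434, interval -0.68 to 0.16).

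With both perturbations, in USB1-KO shPARN against control cells, the guide arm rose by 0.91 log2 units (SE 0.21, edgeR adjusted p = 0.0114), or 1.87-fold, and the passenger arm by 0.68 (SE 0.20, edgeR adjusted p = 0.0350), or 1.61-fold. Here 14.1% of miRNAs passed, 8.51% as higher, and 18.5% had all 3 libraries above, as both arms had. The call of miR-21-5p was lost without control library 2 (log2 0.80, edgeR adjusted p = 0.0537) and without control libraries 1 and 2 together (0.79, 0.244). That of miR-21-3p was lost without USB1-KO shPARN library 1 or 2 or any control library, with log2 changes of 0.53 to 0.84 over all libraries left out in turn, and without control libraries 1 and 2 together (0.78, edgeR adjusted p = 0.231).

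Whether the hairpin acted differently in the 2 backgrounds was tested as an interaction, which 1.82% of miRNAs passed. For miR-21-5p it was -0.22 log2 units (SE 0.29, edgeR adjusted p = 0.736, interval -0.85 to 0.41). For miR-21-3p it was -0.63 (SE 0.28, edgeR adjusted p = 0.250, interval -1.23 to -0.03), with an unadjusted p of 0.0411. Without control libraries 1 and 2 together the interactions of miR-21-5p and miR-21-3p were -0.14 and -0.76 (edgeR adjusted p = 0.933 and 0.612). The difference in calls of the passenger arm between backgrounds is thus not a difference that passed a test of its own.

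The size of these changes depended on the scaling, and miR-21-5p alone took up to 32.1% of a library. Scaling by library totals in place of TMM moved the median log2 change of all tested miRNAs to -0.29, against -0.03, in control shPARN against control cells, and to -0.14, against 0.11, in USB1-KO shPARN against USB1-KO cells. Relative to that median, miR-21-5p stood 1.32 (TMM) and 1.31 (totals) higher in the first comparison and 0.97 and 0.94 higher in the second. The same distances of miR-21-3p were 0.97 and 0.96 in the first comparison and 0.21 and 0.14 in the second.

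The summed level of a list of fibroblast miRNAs varied among these libraries. The 11 fibroblast miRNAs summed to 1297 to 13475 CPM in USB1-KO shPARN, 1188 to 1329 CPM in control shPARN, 1888 to 6887 CPM in USB1-KO and 2218 to 2385 CPM in control libraries. The highest values were those of USB1-KO shPARN library 1, with 131254 counts of the list, and of USB1-KO library 3. The rise of miR-21-5p in USB1-KO shPARN against USB1-KO cells passed the test without either library. In that comparison 1 of the 9 tested members of the list rose, miR-145-3p, and 2 fell, miR-199a-3p and miR-199b-5p. Of all tested miRNAs 14.8% passed there. The sums of all K562 libraries lay above the 323 to 803 CPM of hESC libraries. Whether they stem from fibroblasts, and the part of such cells in the level of miR-21, was not tested.

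**Figure D3:**
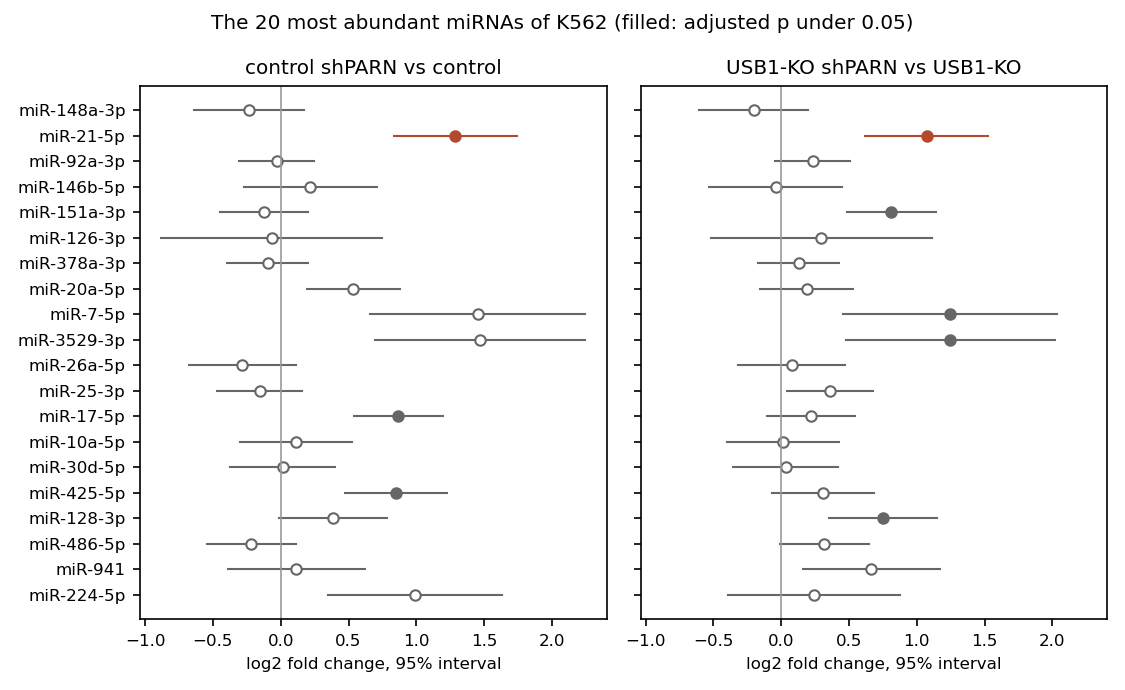
Log2 fold change with 95% interval (edgeR) of the 20 most abundant K562 miRNAs, ordered by mean CPM, in control shPARN against control cells (left) and USB1-KO shPARN against USB1-KO cells (right). Filled points have an adjusted p under 0.05 and miR-21-5p is in red; it lies at 1.29 and 1.07, where the medians of the other 19 miRNAs lie at 0.12 and 0.24.

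Among the 20 most abundant K562 miRNAs, miR-21-5p was second by mean level, at 204092 CPM, after miR-148a-3p at 316579 CPM. In control shPARN against control cells 3 of the 20 rose, miR-21-5p, miR-17-5p of the miR-17/92 cluster (log2 0.87) and miR-425-5p (0.85). Both miRNAs with a larger estimate, miR-7-5p (1.45, edgeR adjusted p = 0.0705) and miR-3529-3p (1.47, 0.0643), missed the threshold. In USB1-KO shPARN against USB1-KO cells 5 of the 20 rose, namely miR-21-5p, miR-7-5p (1.24), miR-3529-3p (1.25), miR-151a-3p (0.81) and miR-128-3p (0.75). miR-7-5p and miR-3529-3p also had near-equal mean levels, 16494 and 16376 CPM. Whether they share reads was not tested, so they may not count as separate miRNAs. None of the 20 fell in either comparison, in which 1.48% and 14.8% of all tested miRNAs passed in either direction.

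The miRNAs that the study followed as adenylation targets gave other values. Their list was chosen in the study itself and is not independent of these libraries. In control shPARN against control cells all 5 had an edgeR adjusted p of 0.624 or more, with a list median of -0.04 against -0.03 over all miRNAs. In USB1-KO shPARN against USB1-KO cells 2 of 5 fell, miR-199a-3p by 0.91 and miR-223-3p, a myeloid miRNA, by 0.66 log2 units. The list median was -0.23 against 0.11 over all. Of all tested miRNAs 14.8% passed there, with 50 of 881 as lower. In USB1-KO shPARN cells miR-223-3p also fell by 1.02 log2 units against control shPARN cells. There 9.19% of all tested miRNAs passed, with 37 of 881 as lower.

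Between the lines, miR-21 was lower in WT hESCs than in control K562 cells. Whether the libraries of both lines were prepared together is not given, so line and library preparation cannot be told apart here. In a fit of the 4 groups WT, USB1 mutant, control and USB1-KO, the log2 difference was -1.52 for miR-21-5p (SE 0.22, edgeR adjusted p = 2.55e-05, interval -1.99 to -1.04), or 0.350-fold. It was -2.53 for miR-21-3p (SE 0.21, edgeR adjusted p = 4.15e-08, interval -2.98 to -2.08), or 0.173-fold. Most miRNAs differed between the lines: 64.3% of 892 passed, 34% as lower in hESCs, and 38.6% had all 3 WT hESC libraries below all 3 control K562 libraries, as both arms had. In this fit the tested miRNAs held 63.5 to 71.9% of the counts of the hESC libraries and 99.8 to 99.9% of those of K562, so the level between lines rests on a smaller part of the hESC libraries. Without control libraries 1 and 2 together the log2 differences were -1.65 for miR-21-5p (edgeR adjusted p = 0.000435) and -2.47 for miR-21-3p (4.19e-06). The change with USB1 loss differed between hESCs and K562 by 0.21 log2 units for miR-21-5p (SE 0.31, edgeR adjusted p = 0.846, interval -0.45 to 0.87) and by -0.32 for miR-21-3p (SE 0.28, adjusted p = 0.716, interval -0.93 to 0.28), where 3.14% of miRNAs passed. These were 0.33 and -0.39 without control libraries 1 and 2 together (edgeR adjusted p = 0.876 for each).

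The ratio of the arms is taken within a library and needs no scaling. In hESCs, miR-21-5p counts per miR-21-3p count were 636, 1150 and 912 in mutant shPAPD5, 775, 975 and 1045 in mutant iUSB1 +Dox, 824, 901 and 959 in mutant iUSB1 -Dox, 794, 910 and 913 in USB1 mutant, and 724, 922 and 966 in WT libraries. In K562 they were 509, 513 and 453 in USB1-KO shPARN, 623, 501 and 503 in control shPARN, 354, 366 and 198 in USB1-KO, and 479, 325 and 492 in control libraries. All 15 hESC libraries (median 912) lay above all 12 K562 libraries (median 485). The passenger arm was lower in hESCs by a larger factor than the guide arm. How many other hairpins separate in this way was not counted, and the ratio was not tested between lines. USB1-KO library 3, the shallowest library, had the lowest ratio of all.

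**Figure D4:**
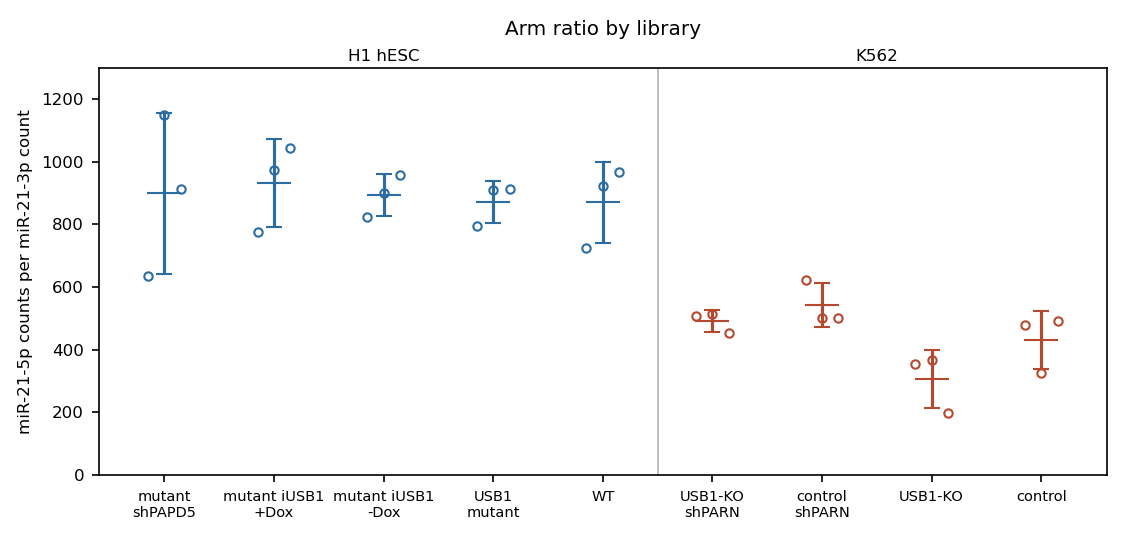
Counts of miR-21-5p per count of miR-21-3p in each library, for the groups of H1 hESCs (left) and K562 (right); circles are libraries, horizontal lines are means of 3 libraries and bars are SD, on an axis that starts at 0. The hESC means lie between 871 and 932, and the K562 means at 492, 542, 306 and 432 in USB1-KO shPARN, control shPARN, USB1-KO and control cells.

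The arm ratio did not pass the test in hESCs. Its log2 value was tested with limma over the 212 hESC and 166 K562 hairpins with a mean of at least 10 counts per arm. Beside it stands a two-sided exact permutation test of the miR-21 ratio alone. For that test 0.1 is the smallest p that 3 against 3 libraries allow. The 7 differences of miR-21 in hESCs ran from 0.01 to 0.10 log2 units, with limma adjusted p of 0.976 to 0.989 and exact permutation p of 0.5 to 1. No hairpin passed limma (0%) in USB1 mutant against WT, mutant shPAPD5 against WT, mutant iUSB1 +Dox against -Dox, mutant iUSB1 -Dox against USB1 mutant and mutant shPAPD5 against USB1 mutant, with 31, 14, 4, 15 and 7 hairpins at an unadjusted p under 0.05. The share that passed was 0.943% in mutant iUSB1 -Dox against WT and 1.89% in mutant iUSB1 +Dox against WT.

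In K562 cells the ratio was 492 ± 33.7 in USB1-KO shPARN and 306 ± 93.8 in USB1-KO cells (SD, n = 3 each), and all 3 libraries of USB1-KO shPARN lay above, as in 9.04% of hairpins. The difference was 0.73 log2 units (SE 0.23, limma adjusted p = 0.0387, interval 0.26 to 1.21, exact permutation p = 0.1), in a comparison that 12% of hairpins passed, 5.42% as higher. It was 0.45 (limma adjusted p = 0.183) without USB1-KO library 3, and the call was also lost without USB1-KO shPARN library 1 (0.71, 0.0851) or 2 (0.70, 0.111) and without a variance trend (limma adjusted p = 0.136). USB1-KO library 3 also held 6887 CPM of the fibroblast list, and the part of that or of its depth in the ratio was not tested.

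The other K562 differences of the ratio did not pass. It was 542 ± 70.0 in control shPARN and 432 ± 92.5 in control cells (SD, n = 3 each), a difference of 0.34 log2 units (limma adjusted p = 0.776, interval -0.13 to 0.82) with all 3 libraries above (exact permutation p = 0.1), as in 9.04% of hairpins, while 0.602% passed. It was 0.15 without control library 2 and 0.13 without control libraries 1 and 2 together (limma adjusted p = 0.979 and 0.995). In USB1-KO against control cells it was -0.52 (limma adjusted p = 0.281, exact permutation p = 0.3), where 0% of hairpins passed and 21 had an unadjusted limma p under 0.05. It was -0.24 without USB1-KO library 3 (limma adjusted p = 0.809) and -0.74 without control libraries 1 and 2 together (0.759). The differences were -0.13 in USB1-KO shPARN against control shPARN (limma adjusted p = 0.747, 1.81% of hairpins passing) and 0.21 in USB1-KO shPARN against control cells (0.662, 2.41% passing). The second of these was 0.017 without control library 2 and -0.0024 without control libraries 1 and 2 together (limma adjusted p = 0.972 and 0.994). The interaction was 0.39 log2 units (SE 0.32, limma adjusted p = 0.475), where 0% passed and 36 had an unadjusted limma p under 0.05. It was 0.10 without USB1-KO library 3 (limma adjusted p = 0.867) and 0.60 without control libraries 1 and 2 together (0.530).

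Set among other hairpins, miR-21 was one-sided in both lines. Its mean log2 ratio was 9.79 in hESCs, where 10 of 212 hairpins were more biased to either arm, and 8.74 in K562, where 7 of 166 were. These hairpins are those with a mean of at least 10 counts per arm, out of 319 and 265 listed pairs. Hairpins with a rarer passenger arm were left out, so the place of miR-21 holds only among those kept. The median absolute log2 ratio was 3.01 in each line, and 102 hESC and 84 K562 hairpins gave more of the 5p arm. Within groups the log2 ratio of miR-21 had an SD of 0.25 in hESCs and 0.32 in K562, against 0.46 and 0.38 for the median hairpin.

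**Figure D5:**
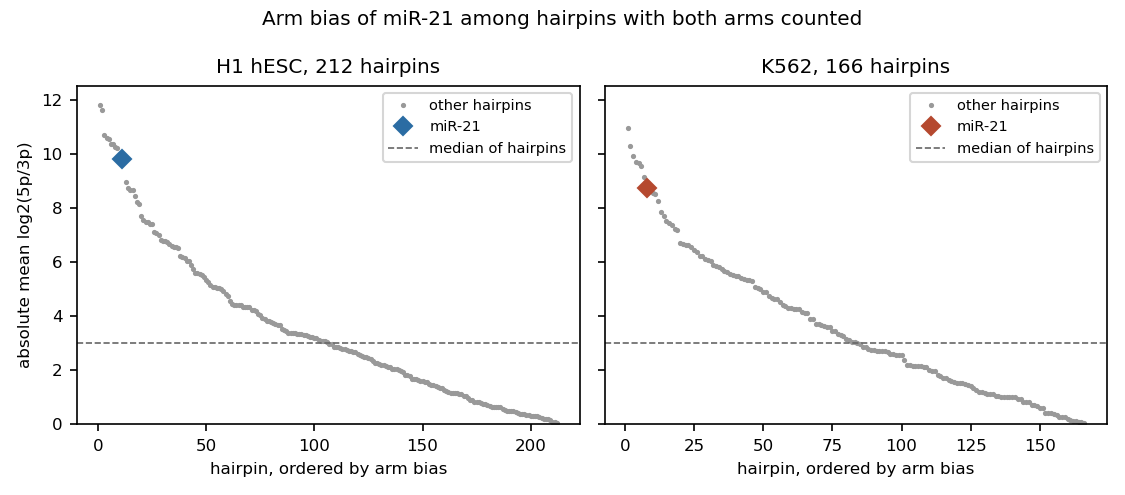
Absolute mean log2 ratio of the 5p to the 3p arm for every hairpin with a mean of at least 10 counts per arm. Hairpins are ordered from most to least biased, in H1 hESCs (212 hairpins, left) and K562 (166 hairpins, right). The diamond is miR-21, at 9.79 in hESCs and 8.74 in K562, and the dashed line is the median of all hairpins, 3.01 in each line.

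The miRNAs whose levels were most like miR-21-5p were taken by Pearson's r of log2 CPM over the libraries of a line, as a description. Libraries of a group share their genotype and all share TMM scaling, and the K562 libraries with and without the PARN hairpin form separate ranges of miR-21-5p, so r within groups is given beside. Over the 12 K562 libraries and 291 miRNAs, the highest were miR-361-3p (r = 0.90, rho = 0.90, within groups 0.87), miR-128-3p (0.87, 0.87, 0.81), miR-92b-3p (0.87, 0.91, 0.53), miR-106a-5p (0.87, 0.91, 0.58) and let-7i-5p (0.86, 0.81, 0.48). miR-361-3p had log2 changes of 1.29 in USB1-KO shPARN against USB1-KO cells (edgeR adjusted p = 0.00600) and 0.86 in control shPARN against control cells (0.115). Over the 15 hESC libraries and 244 miRNAs, they were miR-20a-5p (r = 0.66, rho = 0.59, within groups 0.72), miR-548ah-3p (0.65, 0.66, 0.70), miR-221-5p (0.64, 0.66, 0.73), miR-93-5p (0.59, 0.38, 0.71) and miR-103b (0.59, 0.64, 0.68).

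miR-21-3p, cut from the same hairpin, was not among them. Its r with miR-21-5p was 0.77 in K562 (rho = 0.73, within groups 0.28, position 17 of 291) and 0.38 in hESCs (rho = 0.55, within groups 0.33), where its level was under the minimum for the ranking. Without both libraries farthest from the median of miR-21-5p, r was 0.65 in K562 and 0.38 in hESCs.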

How the data were processed

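Total RNA of 27 libraries, 3 in each of 9 groups, was sequenced for small RNA. The authors isolated RNA with Trizol, used a Lexogen small RNA kit, trimmed adapters (cutadapt 2.5), aligned reads to miRBase (Bowtie2 2.2.9) and counted alignments (SAMtools 1.3.1). The deposited unit is the raw count per mature miRNA, which the authors did not scale. How reads with added tails aligned was not tested. Every table omits miRNAs without a count in its first column, so a fit took those present in all tables concerned (1251 in hESCs, 1080 in K562, 1068 for both lines). Adaptor entries (0.00478 to 0.206% of counts) were removed. Columns of the K562 control table name no cell line and were assigned to their group only, so their library numbers are names. In all, 0 columns were left out. For the miRNA alignments, a genome build is not given in the sources used here.

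The edgeR 4.0.16 filter filterByExpr (at least 10 counts, 15 in total) left 998, 881 and 892 miRNAs. Each line was fitted once with all groups (quasi-likelihood, TMM, robust, R 4.3.3), and p was adjusted by Benjamini-Hochberg over all tested miRNAs of a comparison. The fit between lines held 4 groups. The arm ratio, log2 of the 5p count over the 3p count with 0.5 added to each, was fitted with limma 3.58.1 (trend, robust) for hairpins with a mean of at least 10 counts per arm. Exact intervals and permutation tests used SciPy 1.17.1. Tested on simulated data, edgeR recovered 94% of log2 changes of 1 in USB1 mutant against WT (976 miRNAs) and 93% in control shPARN against control (856), and limma 67.5% of 40 such ratio changes in USB1 mutant against WT (212 hairpins) and 62.5% in USB1-KO against control (166 hairpins), where it called 2.38% of unchanged ones. The simulated ratios had a fixed dispersion, and only hairpins with more counts were changed, so recovery over all hairpins may be lower.

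Alternatives were DESeq2 1.42.0, other scalings, filters, pseudocounts and samples, the replicate block and leaving out each library. Leaving out control libraries 1 and 2 together was chosen after seeing the data. The closest pair of libraries differed beyond sampling noise (chi-squared of 13.2 per degree of freedom), so none was merged. The miRNAs named are both arms, miRNAs with the seed of miR-21-5p (that of miR-21-3p was not searched), the 5 per line closest to miR-21-5p (mean log2 CPM at or over 5), and the adenylation targets of the study; abundant miRNAs were named after seeing their values. The members and lists were chosen with earlier results of these data known.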

Additional observations from a re-analysis of the deposited data

How the results depend on the processing

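The passenger arm rests on few counts, 297 in its lowest library, and each group holds 3 libraries. The rise of miR-21-5p in USB1-KO shPARN against USB1-KO cells passed edgeR or DESeq2 under all 14 alternatives (log2 0.81 to 1.25). Neither arm passed in hESCs under any alternative run. Over all alternatives, 373 log2 changes kept their direction and their side of the threshold, 21 lost the call and 32 changed sign, and of the arm ratios 128 kept both, 4 lost the call and 17 changed sign; the cause was not tested.

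Scaling by library totals, and by totals without miR-21, gave log2 changes of opposite sign in hESCs, all small: 0.059 and 0.061 for miR-21-3p and 0.0097 and 0.010 for miR-21-5p in mutant shPAPD5 against WT, 0.0027 and 0.0043 for miR-21-3p and 0.030 and 0.032 for miR-21-5p in mutant iUSB1 -Dox against USB1 mutant, and 0.14 and 0.14 for miR-21-5p in mutant shPAPD5 against USB1 mutant. With a minimum of 10 CPM in 3 libraries, miR-21-5p was at 0.027 in mutant iUSB1 +Dox against WT. Library totals gave -0.0021 for miR-21-3p in USB1-KO shPARN against USB1-KO and -0.040 for miR-21-5p in the difference of USB1 loss between lines. The call of miR-21-3p was lost under library totals and under totals without miR-21 in control shPARN against control (0.67 and 0.95) and in USB1-KO shPARN against control (0.47 and 0.64), and there also with only the groups compared (0.68). Without control libraries 1 and 2 together the changes against control, no longer called, were 1.20 (miR-21-5p) and 1.07 (miR-21-3p) in control shPARN and 0.79 and 0.78 in USB1-KO shPARN, where the arm ratio was at -0.0024. The arm ratio of USB1-KO shPARN against USB1-KO was 0.73, not called, without a variance trend.

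Leaving out each library in turn gave these lowest and highest log2 changes where a sign or call changed. In mutant iUSB1 +Dox against WT miR-21-5p ran from -0.19 to 0.063. In mutant shPAPD5 against WT miR-21-3p ran from -0.35 to 0.15. In mutant iUSB1 +Dox against -Dox the range was -0.058 to 0.18 for miR-21-3p and -0.069 to 0.19 for miR-21-5p. In mutant iUSB1 -Dox against USB1 mutant it was -0.15 to 0.042 for miR-21-5p. In mutant shPAPD5 against USB1 mutant it was -0.27 to 0.22 for miR-21-3p and -0.068 to 0.082 for miR-21-5p. In control shPARN against control it was 0.85 to 1.04 for miR-21-3p and 1.19 to 1.40 for miR-21-5p, and in USB1-KO shPARN against control 0.53 to 0.84 and 0.73 to 1.10. The difference of USB1 loss between lines ran from -0.0013 to 0.36 for miR-21-5p. The arm ratio ran from -0.12 to 0.091 in USB1 mutant, -0.080 to 0.13 in mutant iUSB1 -Dox, -0.030 to 0.22 in mutant iUSB1 +Dox and -0.18 to 0.24 in mutant shPAPD5 against WT. It ran from -0.039 to 0.18 in +Dox against -Dox, -0.030 to 0.094 in -Dox and -0.19 to 0.23 in mutant shPAPD5 against USB1 mutant, and 0.45 to 0.89 in USB1-KO shPARN against USB1-KO.

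In hESCs the replicate numbers did not visibly pair the samples. Deviations of same-numbered libraries correlated at -0.23 to 0.39 (median 0.02), against -0.38 to 0.28 (median -0.03) for different numbers. In K562 same-numbered libraries were more alike, at -0.04 to 0.35 (median 0.16) against -0.25 to 0.17 (median -0.02), with overlapping ranges. Whether K562 libraries of a number share a batch was not tested. With the replicate block the only sign to change was that of miR-21-3p in mutant shPAPD5 against USB1 mutant (-0.024), and no call of either arm was lost. No paired analysis was possible with K562 control cells or between lines, because the names of the control columns are also titles of H1 samples and their numbers could not be tied to single K562 samples.

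Counts of called miRNAs, which set the background shares, moved more. Over the alternatives other than leaving out a library in turn, they ran from 0 to 108 in USB1 mutant (74 as reported), 8 to 63 in mutant iUSB1 -Dox (43) and 0 to 26 in mutant shPAPD5 (0) against WT. They ran from 8 to 63 in USB1-KO (45), 0 to 36 in control shPARN (13) and 14 to 165 in USB1-KO shPARN (124) against control. They ran from 51 to 163 in USB1-KO shPARN against USB1-KO (130), 49 to 129 in USB1-KO shPARN against control shPARN (81), 0 to 37 for the interaction (16) and 13 to 48 for the difference between lines (28). In hESCs they ran from 0 to 3, 0 to 2 and 0 to 8 in the comparisons of +Dox with -Dox and of -Dox and shPAPD5 with USB1 mutant (0 in each as reported). Leaving out each library in turn, they ran from 38 to 87 in USB1 mutant, 13 to 37 in mutant iUSB1 -Dox, 25 to 61 in mutant iUSB1 +Dox (82 as reported, 25 without +Dox library 2) and 0 to 9 in mutant shPAPD5 against WT. They ran from 16 to 34 in USB1-KO, 1 to 25 in control shPARN (1 without control library 2) and 73 to 112 in USB1-KO shPARN against control. They ran from 38 to 139 in USB1-KO shPARN against USB1-KO (38 without USB1-KO library 2), 38 to 92 in USB1-KO shPARN against control shPARN, 0 to 27 for the interaction and 13 to 29 for the difference between lines.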
